A study of Mus musculus with 16 samples.

Results

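The peaks of open chromatin that appeared or disappeared with lipopolysaccharide (LPS) alone were described in mouse bone marrow-derived macrophages. Accessible DNA was mapped by ATAC-seq, which reads out where the Tn5 transposase could cut, and gave 1 peak list per group. A Veh peak that no LPS peak overlapped by at least 1 bp was called LPS-closed, and an LPS peak that no Veh peak overlapped was called LPS-opened. There were 4636 closed peaks among 35551 Veh peaks (13.0%, Wilson 95% interval 12.7 to 13.4) and 2020 opened peaks among 33181 LPS peaks (6.09%, 5.84 to 6.35). A further 30024 peaks were shared 1-to-1, and the 4 lists of the series together held 129656 peaks.

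Both groups came from C57BL/6J mice and from cells of culture day 8 that had been deprived of serum for a day and then kept in DMSO, the solvent of the LXR agonist used in the other groups, for 3 h. The Veh cells were harvested at that point. The LPS cells received 10 ng/mL LPS in the same medium for a further 2 h, so the effect of LPS and that of the longer culture cannot be told apart. Each list was called on 4 libraries of 50000 cells together and was then limited by the authors to regions with H3K27ac or H3K4me2 in other macrophages. The lists therefore gave no value per library, no share below has a replicate check, and the intervals cover counting error only.

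LPS is a component of the outer membrane of Gram-negative bacteria and binds TLR4 together with CD14 and MD-2. The receptor signals through MyD88 and TRIF to the NF-kB, MAP kinase and interferon regulatory factor pathways, which drive the transcription of cytokines, chemokines and their inhibitors. In macrophages, most of the genome that such factors bind has already been opened by lineage factors such as PU.1 and C/EBP, and a smaller number of elements becomes accessible only on stimulation.

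Among 13 consensus sequences looked for, the one whose share in opened peaks lay most percentage points above that in all LPS peaks was the 10-base NF-kB site, and the matches in opened peaks nearest to inflammatory genes are printed here for that reason. Each is from the highest-scoring opened peak of the gene that held a match, with 20 bases on either side. All are from the NF-kB, cytokine and chemokine gene lists described below, and only genes with a match are shown. Matches were in 8 of 26 opened peaks of the NF-kB list, 7 of 14 of the cytokine list and 4 of 6 of the chemokine list. They were in 0 of 9 of the TLR4 list and 2 of 16 of the prostaglandin and nitric oxide list, against 17.8% of all opened peaks. Capitals mark the match, coordinates and strand are those of GRCm38 (mm10), and the letters are from the RefSeq copy of that genome.
Tnip1 (chr11:54962967-54963016, + strand): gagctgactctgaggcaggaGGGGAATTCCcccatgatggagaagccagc
Nfkb1 (chr3:135640335-135640384, - strand): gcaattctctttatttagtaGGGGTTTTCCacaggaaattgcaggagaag
Nfkbie (chr17:45557570-45557619, + strand): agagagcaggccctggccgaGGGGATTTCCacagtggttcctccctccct
Zc3h12a (chr4:125122582-125122631, + strand): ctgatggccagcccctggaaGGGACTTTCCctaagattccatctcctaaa
Tnf (chr17:35199147-35199196, + strand): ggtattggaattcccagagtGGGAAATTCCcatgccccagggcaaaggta
Il1b (chr2:129380904-129380953, + strand): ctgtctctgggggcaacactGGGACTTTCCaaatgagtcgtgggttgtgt
Il10 (chr1:131015466-131015515, + strand): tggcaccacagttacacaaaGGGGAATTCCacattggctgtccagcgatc
Il27 (chr7:126607192-126607241, - strand): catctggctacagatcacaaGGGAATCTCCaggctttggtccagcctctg
Ifnb1 (chr4:88522881-88522930, - strand): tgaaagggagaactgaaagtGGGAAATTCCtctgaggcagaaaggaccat
Cxcl1 (chr5:90876249-90876298, + strand): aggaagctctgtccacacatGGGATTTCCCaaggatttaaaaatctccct
Ccl5 (chr11:83534831-83534880, + strand): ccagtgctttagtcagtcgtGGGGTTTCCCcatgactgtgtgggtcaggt
Cx3cl1 (chr8:94779272-94779321, + strand): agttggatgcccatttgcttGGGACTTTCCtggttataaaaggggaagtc
The Tnip1 and Ifnb1 matches lay in peaks whose midpoints were 52 and 106 bp upstream of the start of the gene. The Nfkb1, Nfkbie, Zc3h12a and Cx3cl1 peaks were intronic, and the Tnf, Il1b, Il10, Il27, Cxcl1 and Ccl5 peaks had intergenic midpoints. All but the Nfkb1 peak met the stricter criterion for absence explained next.

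A pair of limits of the lists bears on every count of opened or closed peaks. The peak names carry a number that increases along each chromosome, so numbers missing between the flanking peaks of the other list show where the enhancer filter took peaks out. There was no such missing number, and hence no room for a removed peak, at 1238 opened peaks (61.3%, 59.1 to 63.4) and at 2732 closed peaks (58.9%, 57.5 to 60.3). The second limit is the threshold: the median score, which follows the peak caller's q-value and increases with depth, was 126 for opened and 135 for closed peaks, against 339 and 427 in the remaining peaks of their lists. Only 145 opened and 128 closed peaks stood in the upper part of their list, at or above the 50th percentile. The excess of closed over opened peaks, 2.30 to 1, was 1.10 to 1 when the longer Veh list was shortened by score to the length of the LPS list and 0.871 to 1 when a peak also had to reach the median score of its list, so the ratio is not given as an effect of LPS. Depth per library was unknown, and its part in these counts was not tested.

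The cells carried macrophage promoters in both lists. A peak lay within 1 kb of a transcription start site (TSS) of 7 of 8 macrophage markers in Veh and of all 8 in LPS, the difference being Csf1r, the receptor for the growth factor of these cells. None of 6 T cell markers had one, and 1 of 5 B cell markers (Ms4a1) and 1 of 5 neutrophil markers (S100a8) had one in both lists. Of 5 fibroblast markers, Col1a1 had one in Veh only. Both lists had been limited to regions marked in macrophages, so the filter could take out promoters of other cell types. Their scarcity here is therefore no check of the purity of the cells.

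The highest-scoring opened peak with no room for a removed Veh peak lay in an intron of Pik3ca, the gene of a catalytic subunit of PI3-kinase. It was 483 bp wide (chr3:32403090-32403572), scored 710 in LPS and was absent from Veh and T0, and the T0-LPS list held it at 716. A score of 710 placed it at the 85.4th percentile of the LPS list. Next came a peak at -2226 bp from the TSS of Cd52 (negative distances are upstream), which encodes a small glycoprotein of the leukocyte surface, with a score of 552 in LPS, 403 in T0-LPS and 132 in T0. Unlike it, the other 9 of the 10 highest opened peaks were absent from T0, and all 10 were present in T0-LPS, with scores there of 303 to 716.

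Of those 10, the peaks of Apbb1ip (score 530), Fmnl2 (504) and Skil (487) were intronic to the gene named. Apbb1ip encodes RIAM, which links Rap1 to integrin activation, Fmnl2 a formin of the actin cytoskeleton, and Skil the SMAD co-repressor SnoN. The peak assigned to Cebpd (491) lay at 97061 bp from the start of that gene and inside an intron of Spidr, so the nearest start is not that of the host gene there. Further peaks were assigned to Gm17555 (528), Abcb5 (508) and Rnf145 (486), and all 3 were intergenic. The tenth and eleventh peaks scored 486 and 478, so the limit of 10 cut through a close series.

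The highest-scoring closed peak with no room for a removed LPS peak was in Tnf itself. It covered chr17:35200412-35200867, 1365 bp downstream of the start of the gene, with a score of 504 in Veh and 405 in T0. In LPS it was absent, and T0-LPS held it at 55. The peak thus stood in both lists without LPS and was absent or near the bottom of both lists with it. An opened peak of 919 bp had its midpoint just past the other end of the same short gene, 2890 bp from its start, with a score of 278 in LPS and 256 in T0-LPS, and it was absent from Veh and T0.

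Next among the closed peaks was one in an intron of Npc1, whose product exports cholesterol from lysosomes, with scores of 478 in Veh, 169 in T0 and 171 in T0-LPS. Peaks in introns of Mvb12b (470), Sulf2 (469), Chst11 (444) and Psd3 (417) followed, together with intergenic peaks assigned to Snx27 (464), Gmpr (427) and Alg10b (405) and one in 1700064H15Rik (452). Sulf2 and Chst11 encode enzymes that trim and add sulphate groups on extracellular glycans. All 10 had a T0 peak, with scores from 169 to 405, and 5 of 10 still had a peak in T0-LPS. The tenth and eleventh closed peaks of this ranking scored 405 and 393.

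Each peak was assigned to the protein-coding gene with the nearest TSS. An opened peak was nearest to 1647 of the 12687 genes that were nearest to any LPS peak (13.0%), and a closed peak to 3336 of the 12940 genes nearest to any Veh peak (25.8%). Both kinds occurred at 641 genes. Most genes had a single one, namely 1380 with 1 opened and 2497 with 1 closed peak, and 22 genes had 4 or more opened and 114 had 4 or more closed peaks.

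Lpp and Cited2 had most opened peaks, with 6 each. Lpp, which encodes a LIM-domain protein of focal adhesions, had all 6 in its own introns, with scores of 83 to 158, and no closed peak among its 21 Veh peaks. Cited2, a CBP/p300-binding regulator to which peaks as distant as -1214823 bp were assigned, had 6 opened of 39 LPS peaks and 7 closed of 39 Veh peaks. A gene with many peaks has more chances of either, and the opened share of its peaks was 15.4% at Cited2, against 55.6% at Tnip1 and 62.5% at Sh2b2.

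Tnip1 encodes ABIN1, a ubiquitin-binding partner of the NF-kB inhibitor A20. It had 9 LPS peaks, of which 5 had opened, with scores of 339 and 133 in introns, 229 at the promoter, and 118 and 223 at -9208 and -9646 bp, the last pair with room for a removed Veh peak. All 5 were also in T0-LPS, with scores of 208, 76, 224, 134 and 219 in the same order. Sh2b2, an adaptor of receptor tyrosine kinases, had 5 opened of 8 LPS peaks and none closed. Its opened peaks at -141840, -148016 and -150847 bp lay in introns of Cux1, and the others at -464 and -1698 bp. At Lcp1, which encodes the leukocyte actin-bundling protein L-plastin, 5 of 12 LPS peaks had opened, with scores of 58 to 337. Only 2 of these 5 had no room for a removed Veh peak, and the tallest, at 337, had room.

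Ado (5 of 17), Btg1 (5 of 18) and Rasgef1b (5 of 21) each had 5 opened peaks too, and Dyrk2 and Trps1 had 4, the latter 2 chosen by summed score from 14 genes with that number. Btg1 is an antiproliferative factor and Rasgef1b an exchange factor for Ras-family proteins. There was no room for a removed Veh peak at 1 opened peak of Ado and at 2 each of Rasgef1b and Trps1. At Btg1 all 5 opened peaks had room for a removed Veh peak, so a peak outside the enhancer set cannot be told apart from absence there. At Dyrk2 the tallest opened peak, at -14311 bp, scored 723 in LPS and 604 in T0-LPS, also with room.

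Tbl1xr1, which encodes a subunit of the NCoR/SMRT co-repressor complexes, had most closed peaks, 8 of its 23 Veh peaks, with scores of 143 to 523, and no opened peak. Only 3 of the 8 had no room for a removed LPS peak, and the tallest, at 523, had room. There were 8 genes with 7 closed peaks each, Cited2 among them. Mef2a, a MADS-box transcription factor, lost 7 of 15 Veh peaks with scores of 133 to 236, all with no room in LPS and all absent from T0-LPS as well. Bcor, the BCL6 co-repressor, lost 7 of 14, of which 4 had no room, and gained 3, none of which met that stricter criterion. Tgif1, a repressor of SMAD-dependent transcription, lost 7 of 16, of which 3 had no room, and gained 1.

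The others were Dusp6, a phosphatase of ERK (7 of 22), Zfp36l2, an RNA-binding protein that promotes mRNA decay (7 of 29), Ubash3b, a tyrosine phosphatase (7 of 25), and Reep3 (7 of 26), with Zfp703 (6 of 20) last. Zfp703 was chosen by summed score among 9 genes with 6 closed peaks. There was no room in LPS at 2 of its closed peaks, at 4 of those of Reep3, and at 6 each for Dusp6, Zfp36l2 and Ubash3b. Reep3, Zfp36l2, Ubash3b, Mef2a, Tbl1xr1 and Zfp703 had no opened peak. In T0-LPS, 7 of 7 closed peaks were absent at Mef2a, Cited2, Zfp36l2, Dusp6 and Ubash3b, and 6 of 8 at Tbl1xr1.

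**Figure D1:**
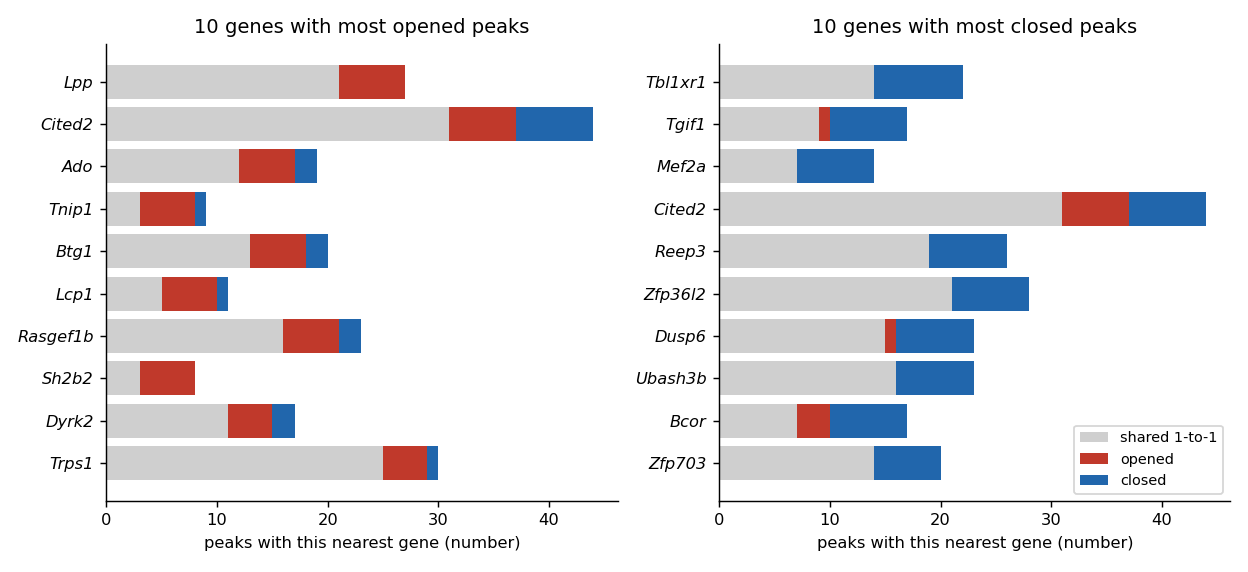
Number of peaks with each gene as the nearest gene, stacked by 1-to-1 shared peaks (grey), opened peaks (red) and closed peaks (blue), for the 10 genes with most opened peaks (left) and with most closed peaks (right). Opened peaks were over 50% of the LPS peaks only at Tnip1 (55.6%) and Sh2b2 (62.5%) among the 10 on the left. Some of the opened peaks counted at Sh2b2 lay in introns of Cux1. Closed peaks reached 50.0% of the Veh peaks at Bcor on the right.

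Changed peaks formed runs. With neighbouring midpoints at most 50 kb apart, 24 runs of 4 or more opened peaks held 102 peaks (5.05% of the opened set), and 102 runs of closed peaks held 479 (10.3% of the closed set). The opened run with most peaks, 6 over 65.7 kb, lay along Lcp1, and 3 of the 6 had no room for a removed Veh peak. None of the 6 shared peaks in its span moved by 20 percentile points, and 1 closed peak lay there.

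A run of 5 opened peaks over 44.4 kb crossed the Tnf cluster, with 1 peak each assigned to Tnf, to the lymphotoxin genes Lta and Ltb, to Aif1, which encodes the macrophage protein Iba1, and to Gm16181. Their scores were 95 to 287. The same span held 3 closed Veh peaks, the one inside Tnf among them, so peaks were gained and lost side by side. Tnip1 (5 peaks over 18.6 kb), Pgs1 with Socs3 (5 over 79.5 kb), and Ehd1 with Cdc42bpg and Map4k2 (5 over 71.5 kb) also had 5. Socs3 encodes a feedback inhibitor of cytokine receptors.

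Runs of 4 opened peaks named by the rule lay at Dyrk2, at Abcb5 with Itgb8, upstream of Tnfaip3, around Fpr1 and at Ado. Tnfaip3 encodes A20, the deubiquitinase that limits NF-kB signalling, and its 4 peaks, from -30791 to -62702 bp, scored 397, 47, 149 and 348 in LPS with no room in Veh. The first and last were in T0-LPS at 265 and 339, and the weaker pair was not. Fpr1 encodes the receptor for bacterial formylated peptides.

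The closed run with most peaks held 11 of the 15 Veh peaks in 136 kb around Selenon, Man1c1, Mtfr1l and Aunip. The closed peaks of this run scored 88 to 384. Of its 4 shared peaks, 2 also fell by at least 20 percentile points, and the median change of the 4 was -18.6. It was followed by 8 closed peaks at Chmp6 and Baiap2 (180 kb), 7 each around Vsir, Tgif1, Mef2a and Cd300lf, and 6 each at Lmo2, Irf2bpl, and Metrnl with B3gntl1. There was no room for a removed LPS peak at 5 of the 11 peaks of the first of these runs. The same held for all 8 at Chmp6 and Baiap2, and for 0 of 6 at Lmo2. Such peaks numbered 7 at Mef2a, 4 each around Vsir and Cd300lf, 3 each at Tgif1 and Irf2bpl, and 2 at Metrnl with B3gntl1. Vsir encodes the inhibitory receptor VISTA and Cd300lf an inhibitory receptor of myeloid cells. Around Cd300lf the 11 shared peaks had a median change of 0.140 points.

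**Figure D2:**
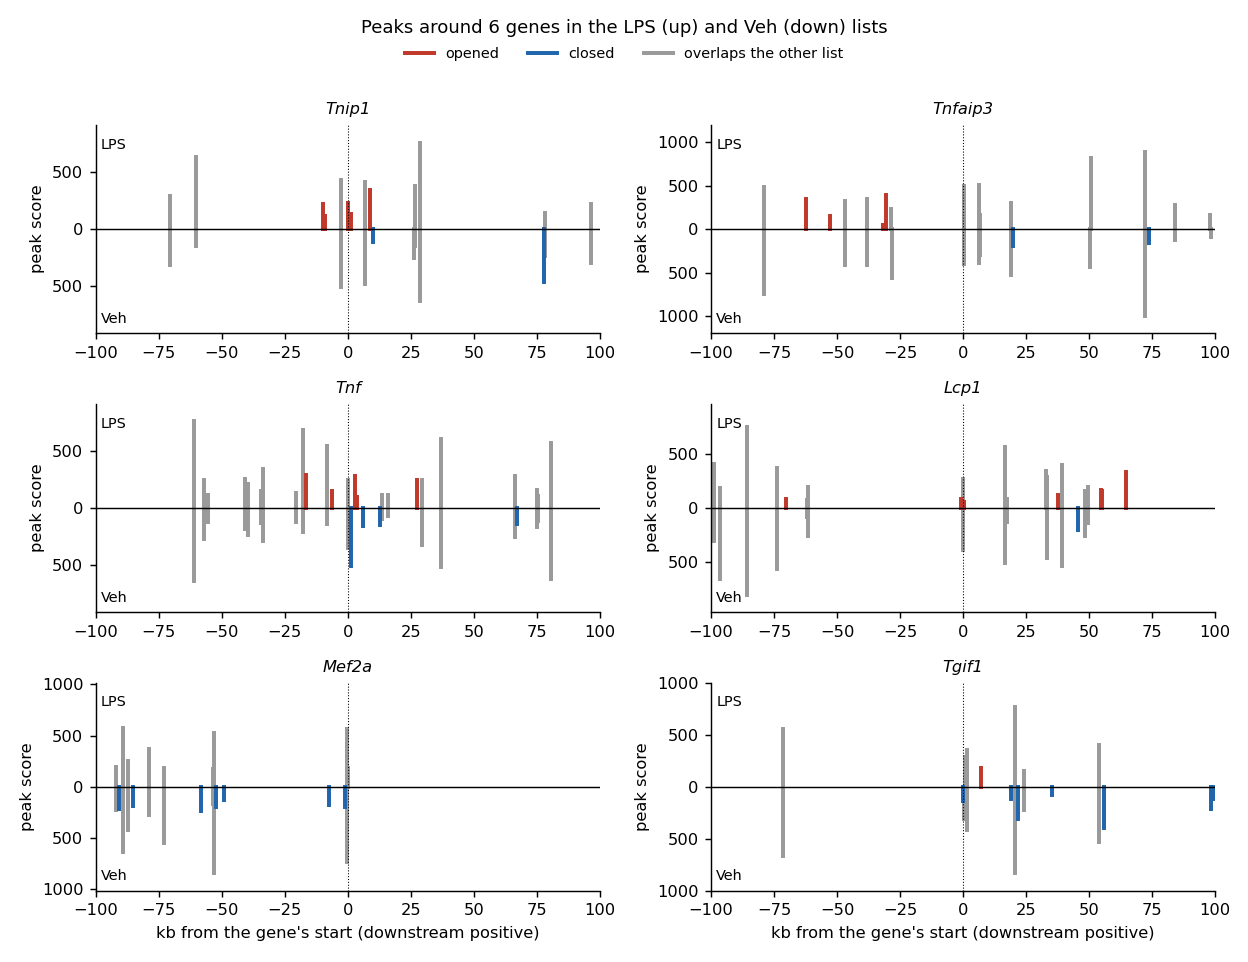
Peaks within 100 kb of the start of 6 genes, by distance in kb from the start in the direction of transcription, with the height giving the score in the LPS list (upwards) and in the Veh list (downwards), and with opened peaks red, closed peaks blue and peaks that overlap the other list grey. At Tnip1 the 5 opened peaks scored 118 to 339, and at Mef2a the 7 closed peaks scored 133 to 236. Tnf shows opened peaks and the closed peak of score 504 within a few kb.

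At promoters, changes were rarer. Of 11128 coding genes with an LPS peak within 1 kb of a TSS, 158 had an opened peak there and no Veh peak (1.42%), and of 11311 with a Veh peak, 339 had lost it (3.00%). Relative to all peaks of the list, opened peaks were 0.602 times and closed peaks 0.585 times as often within 1 kb of a TSS. Introns beyond that distance held 44.4% of opened and 46.9% of closed peaks, against 34.4% and 35.6% of all LPS and Veh peaks.

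Promoters of genes in the lists described below that opened with no room included those of Acod1 (score 326), Traf1 (255), Csf1r (187), Isg15 (187), Ifnb1 (166) and Nos2 (164). Maff (344), Tnip1 (229), Bcl3 (158) and Irf5 (79) also had an opened peak with no room within 1 kb of a TSS. At Bcl3 a shared peak lay nearby, at -868 bp. Acod1 makes the antimicrobial metabolite itaconate, Nos2 makes nitric oxide, Traf1 is an adaptor of TNF receptors, and Isg15 and Ifnb1 encode an interferon-induced ubiquitin-like protein and interferon beta. Ddx58, Il12a and Ass1 promoters also opened, with scores of 119, 82 and 51 and with room for a removed peak. Closed promoters of such genes included Ccnd1 (130), with no room, and Ccnd2 (141), Lif (112) and Ccl7 (94), with room.

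Outside the lists, the highest-scoring closed promoters among those described here were those of Gm6710 (1503), Gm14327 (1140) and Zfp418 (1051), and the highest opened one was that of Shcbp1 (936). These 4 were chosen after their values were seen. All had room, with 2 to 14 missing numbers in the other list, so absence cannot be told apart from removal by the filter.

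The peaks of 10 lists of genes were then examined, from the receptor to its targets. For each, the share of peaks nearest to members that had opened or closed is set beside 6.09% of all LPS peaks and 13.0% of all Veh peaks. Over all genes nearest to a peak, 13.0% had an opened and 25.8% a closed peak. Members with many peaks have more chances of either, so counts of members are not read as results about a list. The lists were chosen with earlier results known, and no test was made on them.

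Among 22 genes of TLR4 signalling, 6 had an opened peak and 7 a closed one, and 9 of 82 LPS peaks had opened (Wilson 95% interval 5.88 to 19.6%). Irak2, a kinase of the MyD88 complex, had 3 opened peaks of its 8, with scores of 81, 122 and 185. Tbk1, the kinase that activates IRF3, had 2, of which the one 663 bp inside the gene scored 259 in LPS and 256 in T0-LPS. Cd14, Tab2, Irf3 and Irf5 had 1 each, with scores of 219, 204, 162 and 79. Tlr4 and Myd88 had none, and Tab2, which links TRAF6 to TAK1, also had 3 closed peaks.

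Of the 20 NF-kB subunits, inhibitors and feedback genes, 13 had an opened peak and 7 a closed one. Of their 135 LPS peaks, 26 had opened (19.3%, 13.5 to 26.7), and 12 of 124 Veh peaks had closed (9.68%, 5.62 to 16.2). Nfkb1, the p105/p50 gene, had the tallest, 2 intronic peaks that scored 612 and 515 in LPS and 366 and 328 in T0-LPS. Both had room for 1 removed Veh peak. Ikbke, an IKK-related kinase, had 3 opened peaks with scores of 471, 192 and 50, and the first lay in an intron of Srgap2.

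Nfkbie, Traf1 and Zc3h12a had 2 opened peaks each, and Rel, Relb, Nfkbia, Nfkbiz, Bcl3 and Birc3 had 1 each, with scores from 73 to 162. Zc3h12a encodes regnase-1, a nuclease that degrades cytokine mRNAs. Nfkb2, Rela, Nfkbib, Nfkbid, Tnip3, Cyld and N4bp1 had none. Members without an opened peak could still gain in rank. At N4bp1, 2 shared peaks went from scores of 127 and 108 in Veh to 317 and 335 in LPS. At the start of Nfkb2 a shared peak went from 131 to 281. Of the 103 shared peaks of the list 12 rose and 5 fell, the latter at Nfkbia, Bcl3, Tnfaip3, Traf1 and Cyld. The largest of these falls was at Nfkbia, from 487 to 154.

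Of the 21 cytokine genes, 8 had an opened peak (Tnf, Il1b, Il10, Il12a, Il27, Lif, Ifnb1 and Tnfsf9) and 6 a closed one. Here 14 of 69 LPS peaks had opened (20.3%, 12.5 to 31.2). The tallest was at -12294 bp from Il27, with a score of 361 in LPS and 252 in T0-LPS, and the shared peak between it and the gene went from 105 to 394. At Il10, the anti-inflammatory cytokine, opened peaks scored 297 and 139 and closed ones 182 and 268. Il1a had a closed peak that scored 491 in Veh and lay at -10227 bp, with room for 3 removed LPS peaks.

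Shared peaks of the cytokine genes included 11 of 54 that had risen by at least 20 percentile points (20.4%), against 3.97% of all shared peaks. All 3 shared peaks of Csf2, the GM-CSF gene, were among them, with Veh scores of 91, 264 and 417 and LPS scores of 375, 519 and 607. The peak at -9789 bp from Il12b, which encodes p40 of interleukin-12 and -23, went from 243 to 751. Of the 54 shared peaks 3 fell (5.56%), at Il12b, Il15 and Tnfsf9, against 9.18% of all shared peaks. The fallen peak of Il12b, 14765 bp from its start, went from 287 to 115. Il6 had no opened, closed or risen peak among its few peaks, and Ebi3, Il23a, Il18 and Osm had none either.

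Chemokine genes had 4 members with an opened peak and 5 with a closed one of 19 found in the annotation, and 6 of 50 LPS peaks had opened (12.0%, 5.62 to 23.8). Of the 6, 3 were upstream of Ccl5, with LPS scores of 447, 107 and 281 and T0-LPS scores of 330, 107 and 209, and Ccl5 had just 5 LPS peaks. Cxcl1, which attracts neutrophils, had 1 at -14999 bp that scored 343 in LPS and 359 in T0-LPS. Cx3cl1 and Ccl12 had 1 each, with scores of 249 and 126. At the start of Cxcl10, a chemokine for activated T cells, a shared peak went from 297 to 606. Of the 45 shared peaks of the list 6 rose and 3 fell, the latter at Ccl4, Ccl6 and Cxcl14.

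Of 23 interferon-stimulated genes found, 5 had an opened and 5 a closed peak, and 5 of 55 LPS peaks had opened (9.09%, 3.95 to 19.6), an interval that includes the background of 6.09%. These were at Isg15, Irf1, Gbp2, Cd274 and Ddx58, with scores of 119 to 243. Both shared peaks of Gbp5 rose, from 149 to 466 at the start of the gene and from 260 to 436 in its intron. The start of Gbp2 went from 347 to 654. Of the 50 shared peaks of the list 6 rose and 5 fell, the latter at Ifit2, Mx1, Usp18, Rsad2 and Socs1. The fallen peak at -109 bp from Ifit2 went from 585 to 298.

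In the list of prostaglandin, nitric oxide, itaconate and glycolysis genes, 10 of 18 had an opened peak and 16 of 116 LPS peaks had opened (13.8%, 8.67 to 21.2). With no room required, 5 genes and 8 of the 116 peaks were left (6.90%, 3.54 to 13.0), an interval that includes the 3.73% of all LPS peaks that opened with no room. All 3 LPS peaks of Ptges, the inducible prostaglandin E synthase, were opened, with scores of 330, 181 and 198 in LPS and 141, 96 and 172 in T0-LPS, and Veh had none. Ptges was thus a gene with no peak before LPS and 3 after it. Nos2 had 2 opened peaks of 3, with scores of 384 and 164 in LPS and 491 and 199 in T0-LPS, the taller with room for 1 removed Veh peak. The tallest opened peak of the list, at 51346 bp from Ptgs2, the inducible cyclooxygenase, scored 1259 in LPS (98.9th percentile), had room for 3 removed Veh peaks and was absent from T0-LPS. Acod1 gained 2 peaks and lost 2, and its intronic shared peak went from 595 to 203.

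Among 20 AP-1, immediate-early and MAPK feedback genes, 8 had an opened and 10 a closed peak, with 10 of 145 LPS peaks opened (6.90%, 3.79 to 12.2) and 23 of 156 Veh peaks closed (14.7%), both with intervals that include the shares over all peaks. Jun lost 6 of 15 Veh peaks and gained 3, Klf6 lost 5 of 38 and gained 1, and Atf3 and Dusp5 each lost 3 and gained 1. At Egr1, a zinc finger factor, a peak at -3428 bp that scored 591 in Veh was closed, with room for 2 removed peaks. The shared peak at the start of Egr1 rose from 189 to 297. At Atf3, an activating transcription factor, 4 shared peaks fell, from Veh scores of 250 to 495 to LPS scores of 97 to 187. Of the 129 shared peaks of the list 10 fell (7.75%) and 5 rose (3.88%), against 9.18% and 3.97% of all shared peaks. The rises were at Egr1, Egr3, Ier2, Dusp2 and Zfp36.

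Macrophage lineage and homeostatic genes had 20 of 28 members with a closed peak and 13 with an opened one. Closed peaks were 41 of 271 (15.1%, 11.4 to 19.9) and opened peaks 22 of 255 (8.63%, 5.77 to 12.7), and both intervals include the shares over all peaks. Mef2a lost 7, Pparg, the lipid-sensing nuclear receptor, lost 4 of 12, and Tgfbr2, a receptor for TGF-beta, lost 3 of 15, the tallest of them intronic with scores of 367 in Veh, 133 in T0 and 121 in T0-LPS. Mrc1, the mannose receptor, lost a peak of score 480, with room, and 4 of its 7 shared peaks fell, among them the one at its start, from 221 to 80. Cebpb, a C/EBP factor induced by LPS, had 3 opened, 3 risen and no closed or fallen peak, and Bcl6, a transcriptional repressor, had 3 opened peaks, the tallest with 390 in LPS and 405 in T0-LPS and with room.

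Cell cycle genes had 4 members with an opened and 6 with a closed peak of 20, with 12 of 94 Veh peaks closed (12.8%). Ccnd1, which encodes cyclin D1, lost 4 of its 7 Veh peaks with scores of 91 to 130, and Myc lost 4 of 25 and gained 2. In the cell cycle list 11 of 80 shared peaks fell (13.8%) and 4 rose (5.00%), against 9.18% and 3.97% of all shared peaks. No interval was computed for these shares of few peaks, and they are not read as a difference. Among 20 housekeeping genes none of 41 LPS peaks had opened (upper limit of the interval 8.57%), and 8 of 49 Veh peaks at 7 of them had closed (16.3%, 8.51 to 29.0). Gapdh, B2m and Eef2 were among those with a closed peak, and the closed share of the list included the background of 13.0% in its interval.

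**Figure D3:**
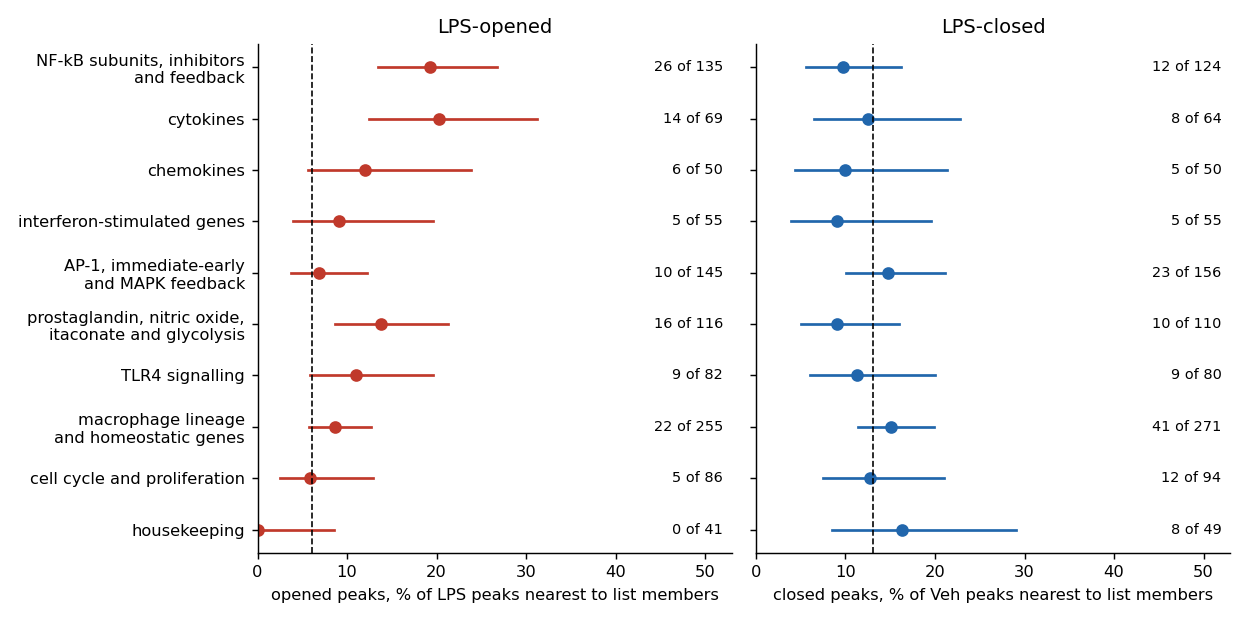
Share of LPS peaks nearest to list members that opened (left) and of Veh peaks that closed (right), as points with Wilson 95% intervals that cover counting error only. Dashed lines mark the share over all peaks of the list (6.09% and 13.0%), and the numbers give the peaks counted. The interval of the opened share lies above the line for 3 lists, the NF-kB, cytokine, and prostaglandin and nitric oxide genes, and the interval of the closed share includes the line for all 10. With no room required, an alternative chosen after seeing the data and not drawn, the opened interval of the prostaglandin and nitric oxide list (3.54 to 13.0%) includes the 3.73% of all LPS peaks, and those of the NF-kB (from 9.20%), cytokine (from 9.14%), TLR4 (from 5.88%) and chemokine lists (from 5.62%) lie above it.

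Most of the accessible regions were present before and after LPS, and their ranks moved little. Of the 30024 shared peaks, the percentile of the score within its list changed by a median of -2.01 points, and its 5th and 95th percentiles were -25.3 and 17.6. Ranks within a list do not depend on a scale of depth, but the lists differ in length, and a peak was called risen or fallen for 20 points or more. By that rule 1193 had risen (3.97%) and 2755 had fallen (9.18%). When ranks were taken among the shared peaks alone the split was 1784 to 1878, so the excess of falls rests on ranks within the whole lists.

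Risen peaks were 24.8% wider with LPS at the median and 87.1% of them were wider, and fallen peaks were 20.9% narrower with 93.9% of them narrower. Score and width follow from the same signal, so these are not 2 findings. The width of all shared peaks changed by a median of -5.55%, and 67.8% of them lost width with LPS. Peaks within 1 kb of a TSS were the more stable, with 2.11% risen and 3.92% fallen, against 5.25% and 12.8% of those farther away. A risen shared peak was nearest to 8.57% of 12290 genes with a shared peak, and a fallen one to 17.4%.

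The largest rise was in an intron of Itgb8, the integrin subunit that activates latent TGF-beta, where a peak of 202 bp with a score of 84 became one of 623 bp with a score of 811. It gained 87.3 percentile points, and it was absent from T0 and stood at 649 in T0-LPS. The Tslp gene, which encodes an epithelial and myeloid cytokine, had the next, from 66 to 701. Susd1 (105 to 710), Slc39a14 (121 to 718) and Runx1 (65 to 577) followed, of which Slc39a14 encodes the zinc and iron transporter ZIP14.

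Of the others, Bhlhe40, a basic helix-loop-helix repressor, had a peak 27737 bp from its start that went from 174 in Veh to 964 in LPS and 713 in T0-LPS and was absent from T0. Maml3, Serp2, St3gal1 and Tspan18 complete the 10, with Veh scores of 71 to 107 and LPS scores of 528 to 625. All 10 had a T0-LPS peak, with scores of 425 to 720, and 7 of 10 had no T0 peak.

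The largest fall was 24185 bp from 4930486L24Rik, from 617 in Veh to 63 in LPS, with 574 in T0 and 133 in T0-LPS. Dkk2, a secreted regulator of Wnt signalling, had a peak at -34127 bp that went from 623 to 104, and Micall2 (560 to 83), Coro2a (598 to 115), Sem1 (634 to 134) and H2-M10.4 (517 to 97) were next. Ninj1, whose product mediates membrane rupture in lytic cell death, had an intronic peak that went from 460 to 73, and stood at 501 in T0 and 94 in T0-LPS. Xylt1, Slco2b1 and Serpinb6b complete the 10, with Veh scores of 442 to 514 and LPS scores of 57 to 104. The 10 had T0 scores of 204 to 574, and 9 had T0-LPS scores of 61 to 226 while the peak of Xylt1 was absent there.

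**Figure D4:**
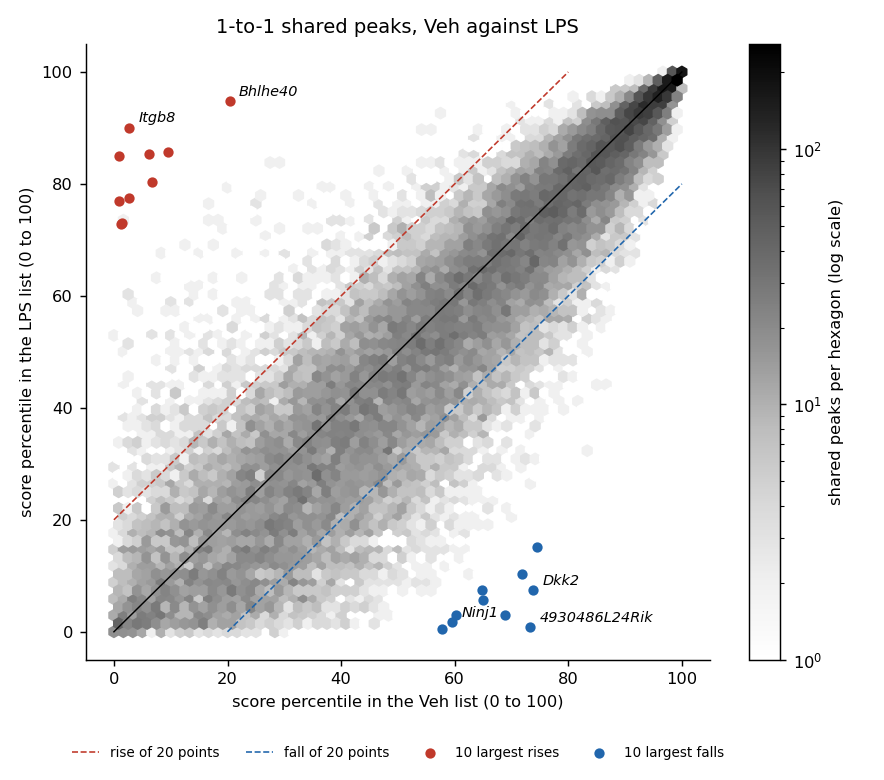
Score percentile of the 1-to-1 shared peaks in the Veh list (horizontal, 0 to 100) and in the LPS list (vertical, 0 to 100), as hexagons shaded by the number of peaks on a log scale, with the 10 largest rises (red) and falls (blue). The solid line marks equal rank and the dashed lines a change of 20 points, beyond which lie 1193 risen and 2755 fallen peaks. The largest rise was 87.3 points (Itgb8) and the largest fall -72.5 points (4930486L24Rik).

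A set of 13 consensus sequences was looked for on both strands in the 200 bp at the peak midpoint, beside all peaks of the same list with the same window. NF-kB matches were in 17.8% of opened peaks (16.2 to 19.6) and 4.77% of all LPS peaks, and in 1.14% of closed peaks (0.876 to 1.49) and 3.32% of all Veh peaks. Among shared peaks it was 1.53% in those that fell by 40 points or more, 0.860% for falls of 20 to 40 and 2.41% for smaller falls. It was 4.93% for rises under 20 points, 172 of 954 peaks for rises of 20 to 40 and 34.9% (83 of 238) for larger rises, so the share was higher in each class of larger rise. Matches also lay near the midpoint, at a median of 34 bp in the 350 opened peaks with one outside chromosome 18, against 43 bp in all such LPS peaks.

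A pair of further consensus sequences was more frequent in opened and in risen peaks in the 200 bp window. The interferon-stimulated response element (ISRE), the site of IRF factors, was in 8.57% of opened (7.43 to 9.87) and 8.89% of risen peaks, against 4.00% of all LPS peaks. The C/EBP consensus (TTGCNNAA) was in 16.5% of opened (14.9 to 18.2) and 17.2% of risen peaks, against 3658 of 33156 LPS peaks. In the whole peak C/EBP was at 19.1% of opened peaks (17.5 to 20.9), an interval that includes the 18.4% of all LPS peaks. Risen peaks stood at 27.7% in that window. Neither was more frequent in closed peaks, at 3.02% and 10.6%, against 3.48% and 10.5% of all Veh peaks.

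AP-1 (TGANTCA) was as frequent in opened (17.6%) and closed peaks (17.0%) as in all LPS (16.9%) and all Veh peaks (16.6%), and was more frequent in shared peaks that moved either way, at 22.1% of risen (19.9 to 24.6) and 19.5% of fallen ones. This holds for a sequence with any base in the middle, and narrower forms were not counted. The paper reports AP-1 enrichment in LPS-opened enhancers, from a de novo motif search against unstimulated enhancers. The reason for the difference was not tested. PU.1 (GAGGAAGT), the lineage factor of macrophages, was less frequent in opened peaks, 6.24% (5.27 to 7.38) against 8.65%, and more frequent in fallen peaks, 12.1% (10.9 to 13.3) against 8.81%. The RUNX consensus (TGTGGTTT) was at 4.65% of fallen and 4.53% of risen peaks, against 3.20% of all Veh and 3.05% of all LPS peaks. The nuclear receptor half-site (AGGTCA) was at 14.8% of fallen (13.5 to 16.2) and 13.4% of closed peaks, against 11.8% of all Veh peaks. In the whole peak it was at 24.7% of fallen and 16.3% of closed peaks (15.3 to 17.4), against 22.4% of all Veh peaks. Its direction in closed peaks thus depended on the window.

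The remaining sites differed in direction. The cyclic AMP response element (CRE, TGACGTCA) was at 0.496% of opened and 0.583% of closed peaks against 1.15% and 1.13%, EGR (GCGTGGGCG) at 0.0991% and 0.194% against 0.455% and 0.394%, and the E-box (CACGTG) at 3.07% and 4.79% against 5.18% and 5.24%, in the order opened, closed, all LPS and all Veh. In fallen peaks the E-box was at 6.54% (5.67 to 7.52). The shares were not matched for distance from promoters. STAT (TTCCNGGAA) was at 0.644% of opened and 0.777% of closed peaks, against 0.718% and 0.766%. MEF2 was at 1.19% of opened peaks against 0.817% of all LPS peaks, a share that its interval includes, at 1.12% of closed (0.857 to 1.47) and 1.23% of fallen peaks (0.885 to 1.72) against 0.844% of all Veh peaks, and at 0.503% of risen peaks. CTCF was at 0.694% of opened peaks against 0.820%, and at 1.42% of closed peaks. CTCF, the insulator protein, was thereby more frequent in closed than in all Veh peaks (0.884%), with an interval of 1.12 to 1.81, and at 1.21% of closed peaks with no room, with an interval from 0.862 that includes that share. In the whole peak CTCF was at 1.66% of closed peaks (1.33 to 2.07), an interval that includes the 1.48% of all Veh peaks. A match is a run of letters and no site, and binding was not measured.

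**Figure D5:**
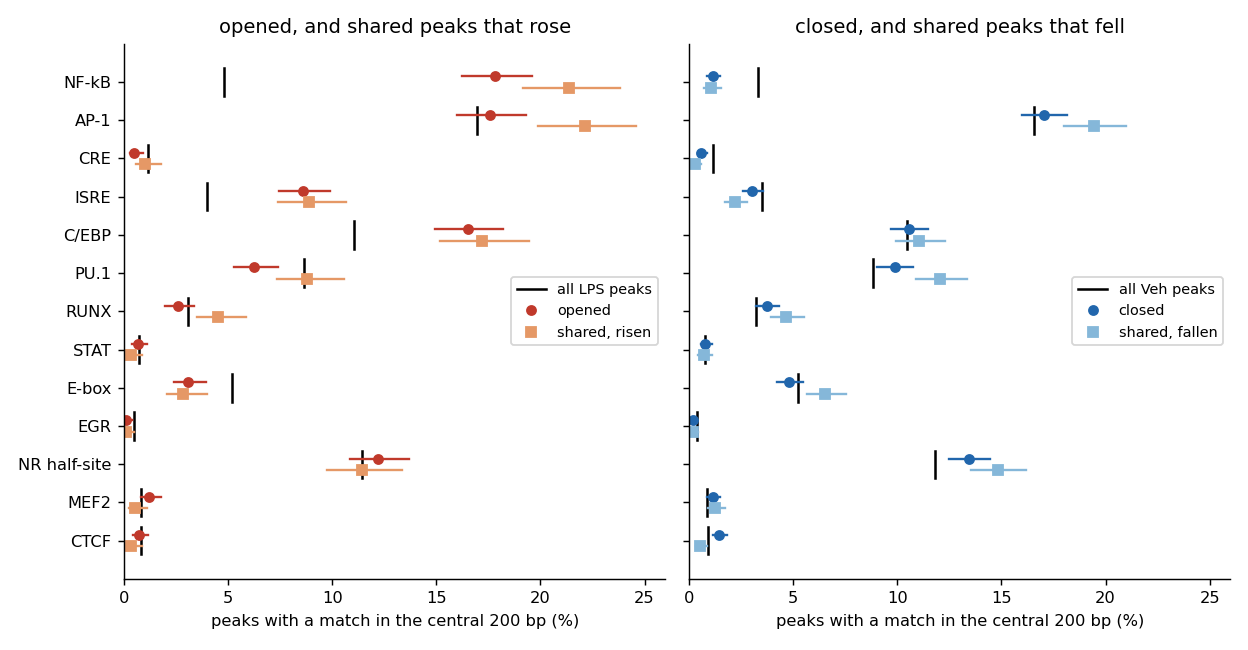
Share of peaks with a match to each of 13 consensus sequences in the central 200 bp, with Wilson 95% intervals, for opened and risen shared peaks beside all LPS peaks (left) and for closed and fallen shared peaks beside all Veh peaks (right), with all peaks of a list as black bars. NF-kB stands at 17.8% of opened and 21.4% of risen peaks against 4.77% of LPS peaks, and at 1.14% of closed and 1.05% of fallen peaks against 3.32% of Veh peaks.

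The T0 and T0-LPS lists were made from other libraries and were looked up for the same peaks. T0-LPS cells received LPS as well, with the LXR agonist T0901317 at 500 nM before it. Of the opened peaks, 1078 overlapped a T0-LPS peak (53.4%, 51.2 to 55.5), while 88 overlapped a T0 peak (4.36%), and of the LPS peaks that overlapped Veh, 92.2% overlapped a T0-LPS peak. Of the closed peaks, 3899 were also absent from T0-LPS (84.1%, 83.0 to 85.1), and 3311 from T0 (71.4%, 70.1 to 72.7), against 17.7% and 18.2% of all Veh peaks. The shares were similar for peaks with no room, at 53.6% of opened and 2321 of 2732 closed ones. Absence from T0-LPS combines the agonist, a shorter list of 31085 peaks and the threshold, and these cannot be told apart for peaks of low score.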

How the data were processed

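ATAC-seq of 16 libraries in 4 groups was processed by the authors with cutadapt, Bowtie2 (mm10, per the labels), SAMtools, MACS2 and bedtools. Peaks were called on the 4 libraries of a group together and kept at H3K27ac- or H3K4me2-marked regions. The deposited lists give a position, a numbered name and a score per peak. The authors' score follows the MACS2 q-value, as judged from its values, and grows with depth, so scores were ranked within a list. Depth per library was unknown.

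Overlaps of at least 1 bp, percentiles and runs were computed in Python 3.11.15 with numpy 2.4.6 and checked on simulated peaks. Genes and TSSs are from GENCODE M21 basic, and sequences from RefSeq GRCm38.p6, whose lengths held all peaks on 21 chromosomes. Peaks on other contigs entered the counts but not the annotation or the motif search. Named were the 10 highest-scoring opened and closed peaks with no room, the 10 genes and 10 runs with most, the 10 largest rises and falls, and members of 10 gene lists. The genes drawn in the locus maps were chosen after values were seen. Members and lists were chosen with earlier results of these data known. With 1 pooled list per group no test was possible, and the Wilson intervals have a level of 95%. Alternatives concerned overlap, score, list length, room, windows and distances. No column of values per sample was used. A few items that the rule names are not reported here.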

Additional observations from a re-analysis of the deposited data

How the results depend on the processing

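No paired analysis was possible because each group had 1 pooled list. The number of closed peaks was 128 at or above the median score and 2732 with no room for a removed peak, and that of opened peaks was 147 and 1238, and 3534 with a reciprocal overlap of 50%. Closed per opened peak was 0.871 at or above the median score, where the direction reversed, and 1.10 with lists of equal length. The share of narrower shared peaks was 71.7% where the Veh score was at or above the median. With 25 kb and 100 kb in place of 50 kb there were 9 and 43 opened runs and 44 and 205 closed runs. With 100 bp and with the whole peak in place of 200 bp, NF-kB shares were 11.0% and 20.8% of opened and 0.540% and 1.53% of closed peaks, and AP-1 shares 10.9% and 20.8% of opened and 12.1% and 19.3% of closed peaks. NF-kB matches were in 19.8% of opened peaks with no room, an alternative chosen after seeing the data. Over all LPS peaks, the NF-kB share of opened peaks was 3.74-fold in the main window, 4.35-fold in 100 bp and 2.44-fold in the whole peak. Within 500 bp and 2 kb of a TSS were 15.3% and 33.5% of opened and 15.1% and 30.9% of closed peaks. In the whole peak AP-1 was at 23.0% of all LPS and 23.4% of all Veh peaks. A longer window can hold more matches and more starts by its construction. Other alternatives kept the counts within 1.5 times, except the members of gene lists with an opened or closed peak, which moved in 5 and 7 of 10 lists when a TSS within 100 kb counted and in 2 and 4 lists with no room required. Housekeeping genes then went from 0 to 6 with an opened peak within 100 kb. Depth limits what the lists hold near the calling threshold.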
